A study of Homo sapiens with 5 samples.

Results

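The 10 genes described here were *ID1*, *VCAM1*, *PTGS2*, *TNC*, *ANGPTL4*, *LTBP1*, *IL13RA2*, *FSCN1*, *SPARC* and *ROBO1*, a list of genes tied to metastasis to the lung in breast cancer cells of the MDA-MB-231 lineage, out of 20098 protein-coding genes on chromosomes 1 to 22 and X. They were listed by symbol, with no threshold on binding. For each gene, peaks of Fra-1, MYC and E2F1 were collected in its promoters (from 2 kb before to 2.5 kb after any annotated transcription start site, TSS), in its gene body outside promoters, and in the 50 kb on either side. All libraries came from LM2 cells, given as untreated in the labels and a derivative of the human triple-negative breast cancer line MDA-MB-231 that spreads to the lung. The cells were fixed with formaldehyde, and chromatin was precipitated (ChIP-Seq) with antibodies against Fra-1 (also called FOSL1), c-Myc or E2F1, while input DNA served as the common control. An EZH2 library of the same cells was not used here, nor was the fourth TF. There was 1 library per factor, so no replicate spread exists and no test between factors or genes was possible. The MDA-MB-231 LM2 line is a single cell line, and its expression of these genes was not measured in the files used.

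Fra-1 belongs to the AP-1 family, whose FOS and JUN members bind DNA as dimers at the element TGAGTCA, which reads TGACTCA on the other strand. AP-1 often occupies enhancers away from start sites and is highly active in basal-like breast cancer cells. MYC binds E-boxes (CACGTG) with MAX, and E2F1 binds GC-rich promoters of cell cycle and many other genes through elements such as TTTCCCGC and TTTGGCGC. The proteins encoded by the 10 genes are of several kinds and comprise a transcriptional regulator, adhesion and guidance receptors, matrix components, secreted factors, an enzyme and a cytoskeletal protein.

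Fra-1 and E2F1 had peaks at most of these genes, and MYC at 2 of them, in flanks only. A Fra-1 promoter peak was found at 6 of the 10 genes (*ID1*, *TNC*, *ANGPTL4*, *LTBP1*, *FSCN1* and *SPARC*), against 13.2% of all protein-coding genes. An E2F1 promoter peak was found at 9 genes, all but *VCAM1*, against 61.3% of all genes. A MYC promoter peak was found at 0 of the 10 genes, against 17.8% of all genes. With only 10 genes, so low a count is not far from that share, and the difference was not tested. Promoter peaks of both Fra-1 and E2F1 occurred at 6 genes, that is at every gene with a Fra-1 promoter peak, against 12.3% of all genes. This is the usual state, since 2480 of the 2662 protein-coding genes with a Fra-1 promoter peak also had one of E2F1. *VCAM1* alone had no peak of any factor in any zone, a state shared by 14.3% of all genes.

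Outside promoters the counts were closer to the background. Fra-1 peaks lay in the bodies of 3 genes (*ANGPTL4*, *LTBP1* and *ROBO1*) against 17.3% of all genes, and E2F1 peaks lay in the bodies of the same 3 genes against 17.8%. MYC peaks lay in the body of 0 genes, against 2.44%. In the 50 kb flanks, Fra-1 peaks occurred at 5 genes (*ID1*, *TNC*, *ANGPTL4*, *FSCN1* and *SPARC*) against 44.2% of all genes, and E2F1 peaks at the same 5 genes against 68.7%. MYC flank peaks occurred at 2 genes (*ID1* and *ANGPTL4*) against 28.7%. The flank shares of the 10 genes were near the background for Fra-1. Those of MYC and E2F1 were lower than it by few genes, a difference that was not tested.

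**Figure D1:**
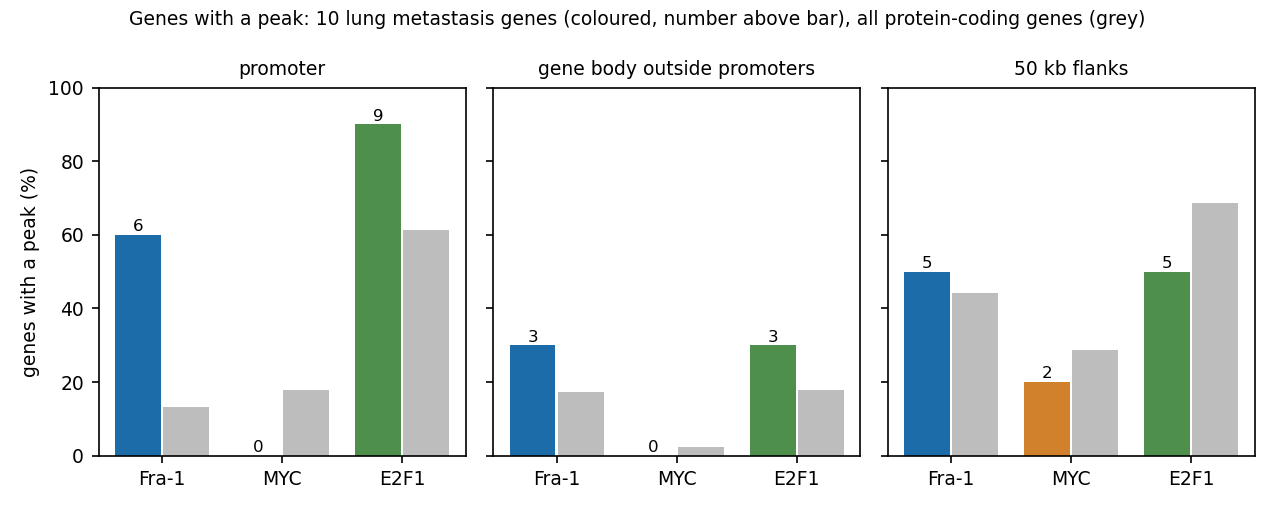
Share of genes with a peak (y axis, percent) by factor (x axis) in promoters, gene bodies outside promoters and 50 kb flanks. Coloured bars are the 10 lung metastasis genes with their number above, and grey bars are all 20098 protein-coding genes. The coloured bars stand above the grey ones in the promoter panel for Fra-1 (6 genes) and E2F1 (9 genes), and MYC has none in promoters or bodies.

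In all, 37 of 17320 Fra-1 peaks, 3 of 4867 MYC peaks and 60 of 36933 E2F1 peaks lay in these zones, which together cover 2.82 Mb. The number of Fra-1 peaks per 100 kb searched had a median of 1.73 over the 10 genes, against 0.539 over all protein-coding genes. The MYC median was 0 in both, and 8 of the 10 genes had no MYC peak. The E2F1 median was 2.33 against 2.24, and 5 of the 10 genes lay above the latter. Peak strength at the 10 genes was close to that of the whole lists. The fold enrichment, which is the fragment pileup at the summit over the local input background, had a Fra-1 median of 8.19 (whole list 8.24), a MYC median of 6.36 (6.67) and an E2F1 median of 8.82 (8.88). The MYC library kept the most tags (23853621, against 12931227 for Fra-1, 18056168 for E2F1 and 10758036 for the input) and gave the fewest peaks. The number of start sites also matters for the promoter zone, since the 10 genes had a median of 6.5 annotated start sites, against 5.0 over all genes. With the canonical start site alone, Fra-1 promoter peaks remained at 4 genes against 7.23% of all genes, and E2F1 promoter peaks at 8 genes against 57.4%.

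**Figure D2:**
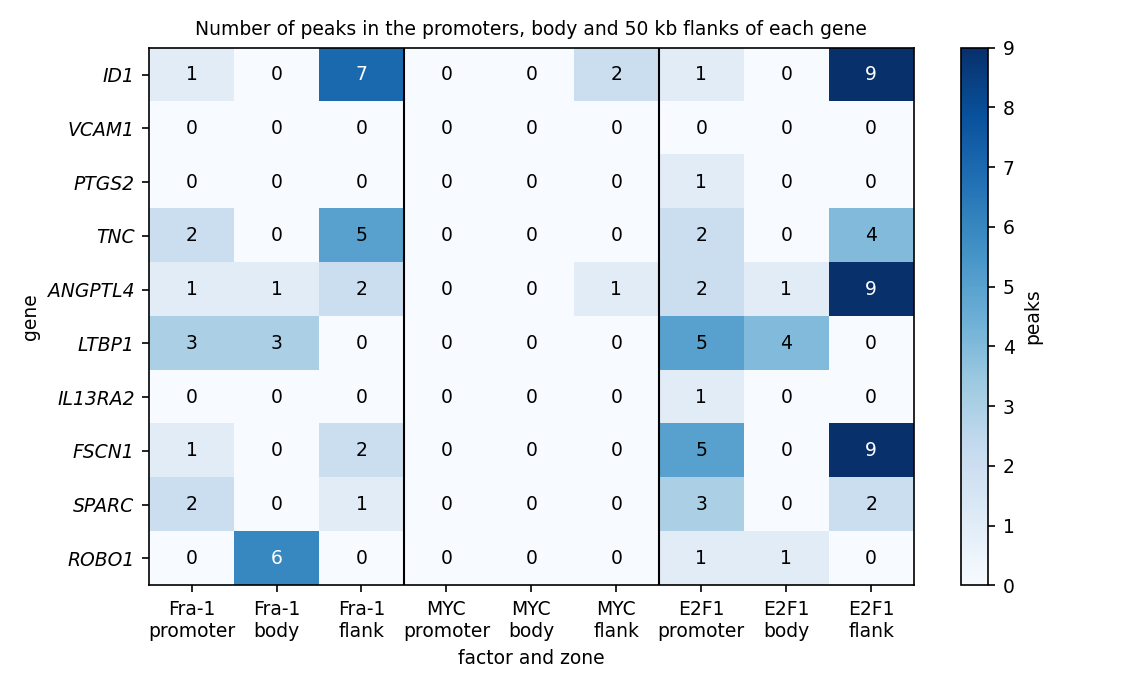
Number of peaks (colour and digits) for each of the 10 genes (rows) by factor and zone (columns). *ID1*, *ANGPTL4* and *FSCN1* hold 9 E2F1 flank peaks each, *ROBO1* holds 6 Fra-1 peaks in its body, *VCAM1* holds none, and the MYC columns are empty but for *ID1* and *ANGPTL4*.

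The sequences below were taken from the GRCh37 genome (the hg19 coordinates of the peak lists), plus strand, as the 101 bases centred on a summit, and capitals mark the element named. The first 6 windows show AP-1 elements at Fra-1 summits of 6 of the genes, chosen among promoter, intronic and downstream peaks that lie outside annotated exons.

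ID1, downstream, bound by all 3 factors (chr20:30198443-30198543, Fra-1): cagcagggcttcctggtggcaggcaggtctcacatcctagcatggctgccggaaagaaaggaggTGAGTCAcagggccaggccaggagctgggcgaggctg
TNC, upstream promoter (chr9:117881256-117881356, Fra-1): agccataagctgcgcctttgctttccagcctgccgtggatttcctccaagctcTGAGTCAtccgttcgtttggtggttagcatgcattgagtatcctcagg
ANGPTL4, upstream promoter (chr19:8427025-8427125, Fra-1): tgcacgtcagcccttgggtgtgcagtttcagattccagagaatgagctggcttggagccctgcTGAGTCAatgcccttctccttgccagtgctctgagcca
SPARC, intronic promoter (chr5:151051782-151051882, Fra-1): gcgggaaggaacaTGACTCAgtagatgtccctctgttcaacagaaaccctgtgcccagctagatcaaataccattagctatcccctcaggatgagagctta
LTBP1, strongest Fra-1 peak, intron (chr2:33295091-33295191, Fra-1): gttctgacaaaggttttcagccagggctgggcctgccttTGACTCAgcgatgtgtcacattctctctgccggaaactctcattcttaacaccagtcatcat
ROBO1, intron (chr3:79217348-79217448, Fra-1): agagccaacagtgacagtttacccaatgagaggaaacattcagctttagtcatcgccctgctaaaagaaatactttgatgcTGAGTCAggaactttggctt

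The next windows are E2F1 summits. The first holds a CRE (TGACGTCA, the element of CREB and ATF proteins) just before the start site of *LTBP1*, and the second is a weak peak upstream of *ANGPTL4* with an exact E2F element.

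LTBP1, before the start site (chr2:33171918-33172018, E2F1): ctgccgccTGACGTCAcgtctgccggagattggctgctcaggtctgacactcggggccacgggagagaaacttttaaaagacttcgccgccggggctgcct
ANGPTL4, upstream flank (chr19:8418914-8419014, E2F1): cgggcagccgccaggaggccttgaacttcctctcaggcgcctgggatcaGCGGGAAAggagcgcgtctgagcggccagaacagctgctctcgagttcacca

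An AP-1 element lay within 50 bp of 21 of the 37 Fra-1 summits (56.8%), and these summits belonged to 7 genes. Over the whole Fra-1 list the share was 53.3% (95% Wilson interval 52.5 to 54.0%, counting error only). This interval is that of the list and leaves out the larger counting error of the 37 peaks. The share was 7 of 10 in promoters, 5 of 10 in gene bodies and 9 of 17 in flanks. The coding-exon summit of *LTBP1* held 2 such elements. A CRE lay at 1 of the 37 Fra-1 summits (2.7%, list 0.393%), that in the *ID1* promoter at −904 bp from the start site.

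E2F1 summits rarely held E2F elements. TTTCCCGC, TTTGGCGC, TTTCGCGC and TTTGCCGC were searched on both strands, and 2 of 60 E2F1 summits (3.33%) held any of them, against 1.68% of the whole list. Both lay in the upstream flank of *ANGPTL4*, with fold enrichments of 6.98 and 4.70. An AP-1 element lay at 13 of 60 E2F1 summits (21.7%), against 12.2% of the list. A CRE lay at 3 E2F1 summits (5.0%, list 0.466%), at the start sites of *LTBP1* and *FSCN1* and in the downstream flank of *ANGPTL4*. An E-box lay at 0 of the 3 MYC summits (list 16.8%) and at 1 E2F1 summit (1.67%, list 2.56%), that at the *TNC* start site. Since these letters were matched exactly, a summit without them says only that they are not in this window.

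Fra-1 and E2F1 peaks coincided at many sites. The 100 peaks of the 10 genes formed 68 separate regions, of which 31 held E2F1 alone, 9 Fra-1 alone, 25 Fra-1 with E2F1, 1 MYC with E2F1, and 2 all 3 factors. Of the 37 Fra-1 peaks 28 (75.7%) overlapped an E2F1 peak, against 61.5% of the whole Fra-1 list (95% Wilson interval of the list 60.8 to 62.2%). The share of the 37 peaks has a far larger counting error, which this interval leaves out, and the difference was not tested. Of the 60 E2F1 peaks 28 (46.7%) overlapped a Fra-1 peak, against 28.3% of the E2F1 list. All 3 MYC peaks overlapped E2F1 peaks, as did 96.1% of the MYC list. Each library came from many cells, so binding of both factors to the same DNA molecule and binding in different cells cannot be told apart.

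At the 27 regions with both Fra-1 and E2F1, the summits lay a median of 32 bp apart (range 3 to 929 bp), and within 50 bp of each other at 19 regions. This and the counts that follow describe these regions alone, without a share over the whole lists. The Fra-1 fold enrichment was the higher value at 13 of the 27. The counts varied from gene to gene, over few regions each, and this was not tested. The E2F1 value was the higher at 6 of 7 shared regions of *ID1*, 3 of 3 of *SPARC* and 2 of 2 of *FSCN1*, whereas the Fra-1 value was the higher at 4 of 5 of *TNC*, 4 of 5 of *LTBP1* and 3 of 4 of *ANGPTL4*. Library depth was unequal, which limits the comparison of these values from factor to factor. By percentile of fold enrichment within each factor's own list, Fra-1 ranked higher at 16 of the 27. E2F1 then ranked higher at 4 of 7 regions of *ID1* and 2 of 3 of *SPARC*, while the counts of *FSCN1*, *TNC*, *LTBP1* and *ANGPTL4* were the same as by fold.

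**Figure D3:**
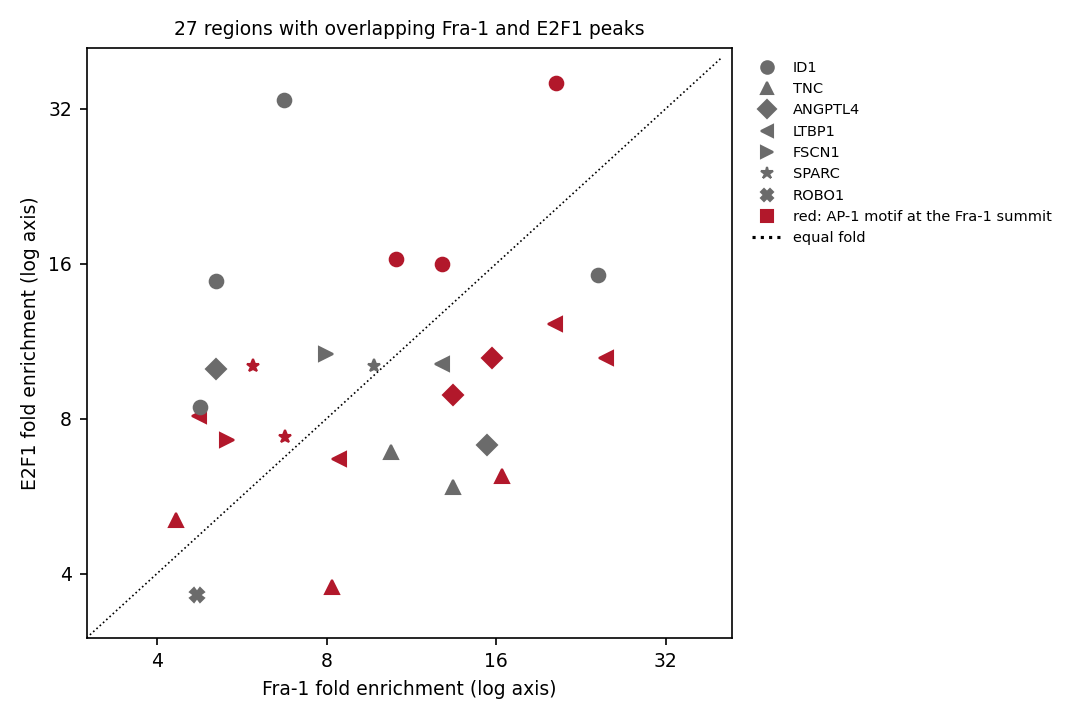
Fold enrichment of Fra-1 (x axis, log scale) and E2F1 (y axis, log scale) at the 27 regions where their peaks overlap. Symbols stand for genes, red marks an AP-1 element within 50 bp of the Fra-1 summit (15 regions), and the dotted line marks equal values. Points of *ID1*, *SPARC* and *FSCN1* lie mostly above the line, and points of *TNC*, *LTBP1* and *ANGPTL4* mostly below it. Library depth was unequal. By percentile within each list, E2F1 ranked higher at only 4 of 7 regions of *ID1* and 2 of 3 of *SPARC*, with the counts of the other genes named unchanged.

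The E2F1 peaks that overlapped Fra-1 differed in base composition from those that did not. Of the 28 that overlapped, 12 held an AP-1 element and 0 an E2F element, and their median GC content was 51.5%. Of the 32 that did not, 1 held an AP-1 element and 2 an E2F element, and their median GC content was 62.4%. The same split of the whole E2F1 list gave AP-1 elements at 36.1% and 2.70% of summits and a GC content of 50.5% and 61.4%. The median fold enrichment at the 10 genes was 9.45 with and 8.62 without Fra-1, and over the list 7.86 and 9.45.

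The position of the summits relative to the canonical start site differed between the factors. A Fra-1 summit lay within 100 bp of the canonical start site at 0 of the 10 genes, near the background, since 1.69% of all protein-coding genes had such a summit. E2F1 summits lay within 100 bp of the canonical start site at 7 genes (*ID1*, *TNC*, *ANGPTL4*, *LTBP1*, *IL13RA2*, *FSCN1* and *SPARC*), against 28.8% of all genes. Of the 10 Fra-1 promoter peaks, 4 had their summit in the window of the canonical start site and 6 only in that of another start site.

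**Figure D4:**
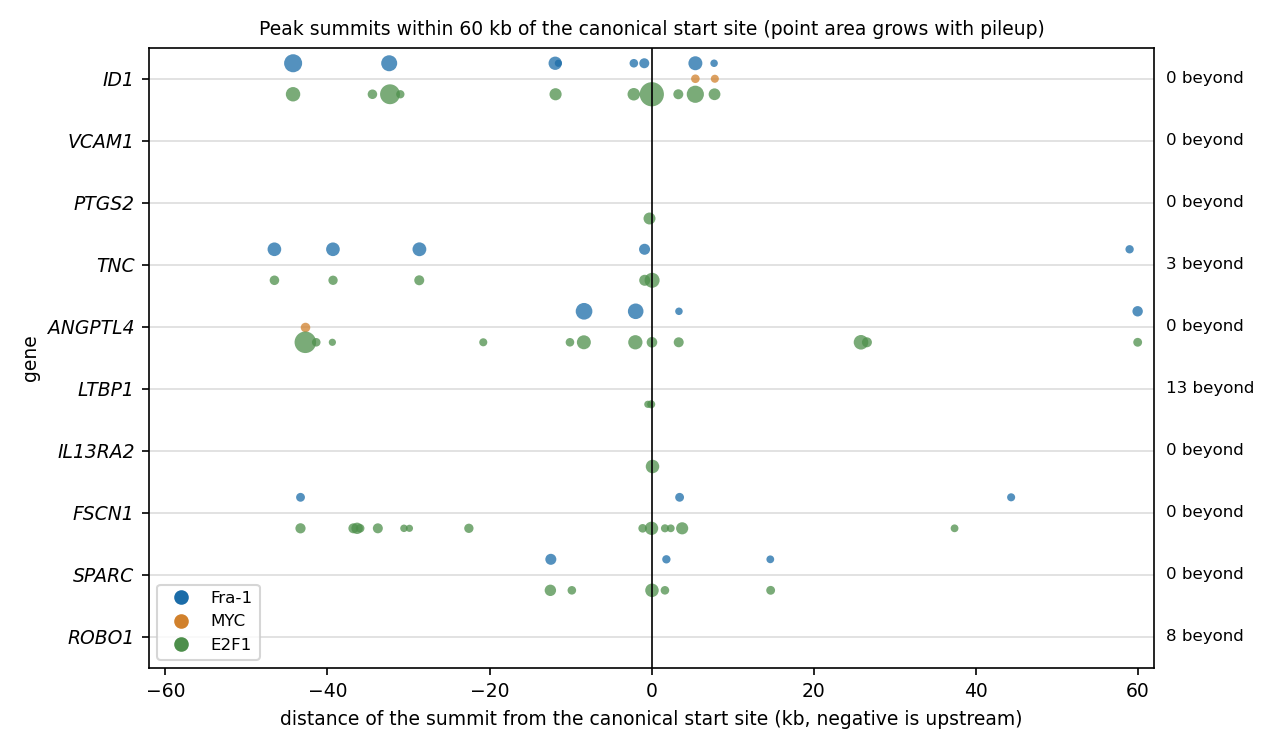
Summits within 60 kb of the canonical start site for each gene (rows), by factor (colour), with the distance in kb on the x axis (negative values are upstream) and point area growing with the pileup. Summits farther away are counted at the right edge. E2F1 points sit at the canonical start sites of most genes, whereas Fra-1 points lie beside them or far away. The summits beyond the edge at *LTBP1* include 3 Fra-1 promoter peaks of other annotated start sites.

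At the E2F1 promoter peak nearest to the canonical start site, fold enrichment was 33.2 at *ID1*, 26.5 at *FSCN1*, 20.8 at *ROBO1*, 19.9 at *SPARC*, 19.6 at *IL13RA2*, 16.6 at *TNC*, 16.3 at *ANGPTL4*, 14.5 at *PTGS2* and 6.16 at *LTBP1*. The order by pileup was different: 131 at *ID1*, 61 at *ROBO1*, 48 at *TNC*, 38 at *SPARC* and *IL13RA2*, 37 at *FSCN1*, 29 at *PTGS2*, 22 at *ANGPTL4* and 11 at *LTBP1*. *FSCN1* ranked second by fold and sixth by pileup, with a recovered input background of 0.432, against 2.98 at *ID1* and 1.98 at *ROBO1*. With the scaled pileup taken as a count, the exact Poisson interval of *ID1* (110 to 155) did not overlap that of *ROBO1* (46.7 to 78.4), its neighbour in the order. Every other pair of neighbours in the order by pileup overlapped, down to *ANGPTL4* (13.8 to 33.3) and *LTBP1* (5.49 to 19.7). For genes farther apart the intervals could be separate, as those of *ROBO1* and *PTGS2* (19.4 to 41.6). The recovered background differed as well (1.98 and 1.07), and a difference in binding between these genes was not tested. The intervals cover counting error only.

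*ID1* (chromosome 20, 30193086 to 30194318, plus strand) encodes an inhibitor of basic helix-loop-helix transcription factors that lacks a DNA-binding domain of its own. It is the smallest of the 10 genes (1.23 kb), and with its flanks it held 8 Fra-1, 2 MYC and 10 E2F1 peaks. Its E2F1 promoter peak spanned 3639 bp, wider than 99.9% of the E2F1 list, and covered the whole gene, with its summit 25 bp after the canonical start site, a pileup of 131 and a −log10 q of 158. The Fra-1 promoter peak was smaller, with its summit at −904 bp, a pileup of 19 and a fold enrichment of 6.71.

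The largest Fra-1 peaks near *ID1* lay upstream. The summit at −44231 bp had a fold enrichment of 24.2 and lay in the body of *HM13*, which encodes signal peptide peptidase. Its peak overlapped the promoter window of an annotated *HM13* start site. The summit at −32377 bp (20.4) lay in the body of *HM13* as well. The summit at −11893 bp lay between genes, with a fold of 12.8. E2F1 bound all 3 sites as well, with fold enrichments of 15.2, 35.8 and 16.0.

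Both sites bound by all 3 factors lay downstream of *ID1*. At the first, the summits of Fra-1 (5401 bp from the start site), MYC (5400 bp) and E2F1 (5394 bp) fell within 7 bp, and the AP-1 element printed above was centred 17 bp from the Fra-1 summit. The fold enrichment there was 10.6 in the Fra-1, 3.75 in the MYC and 16.3 in the E2F1 library. The MYC value was among the weakest of its list, at percentile 0.781 with a −log10 q of 2.06. At the second site, near 7.7 kb, the respective values were 5.08, 6.36 and 14.8.

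**Figure D5:**
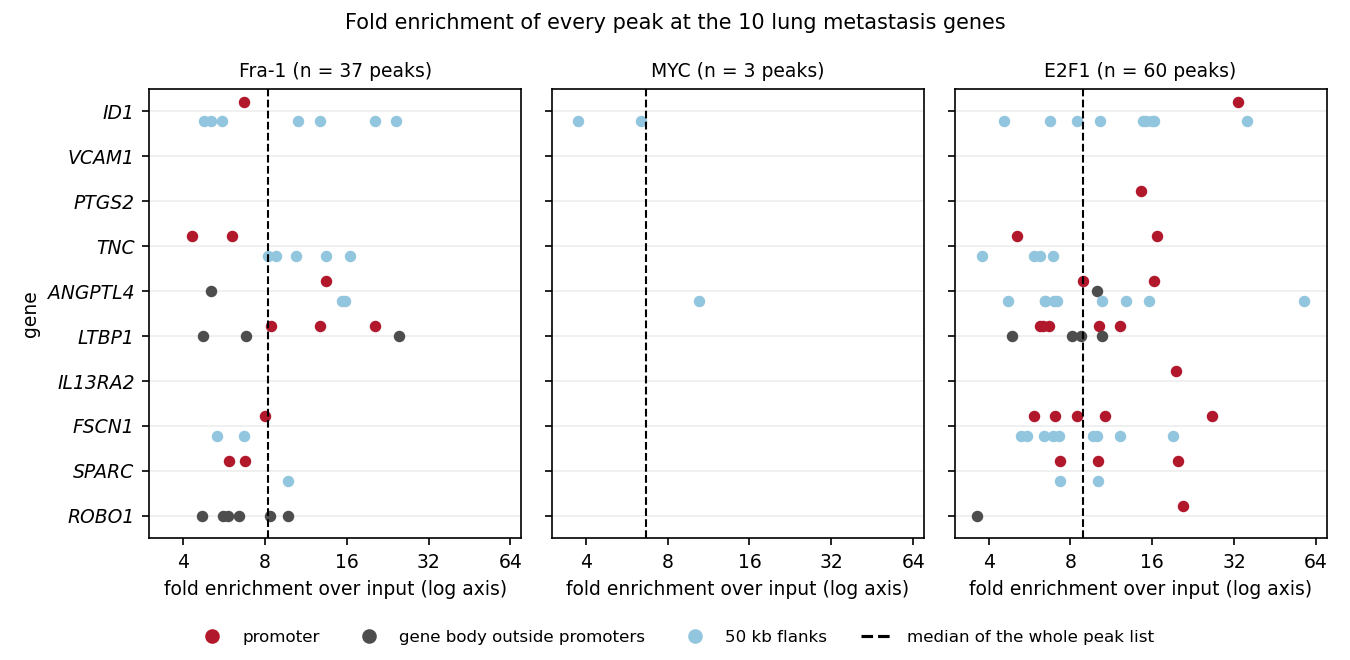
Fold enrichment over input (x axis, log scale) of every peak at the 10 genes (rows), with 1 panel per factor and colours for promoter, gene body and flanks. The dashed line is the median of the factor's whole list. The E2F1 promoter peaks of *ID1*, *PTGS2*, *IL13RA2* and *ROBO1* lie to its right, and the Fra-1 peaks of *ROBO1* lie around or to the left of it.

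*VCAM1* (chromosome 1, 101185298 to 101204601, plus strand) encodes an adhesion molecule that binds integrins on leukocytes. Its nearest peaks lay outside all zones, at 92.1 kb from the start site for Fra-1, 97.6 kb for E2F1 and 176 kb for MYC, with fold enrichments of 5.23, 4.13 and 7.59. *IL13RA2* (chromosome X, 114238538 to 114254540, minus strand) encodes a decoy receptor for interleukin-13, and it held a single peak, that of E2F1 28 bp after the start site (fold 19.6, pileup 38). The nearest Fra-1 peak was 218 kb away and the nearest MYC peak 3330 kb.

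*ROBO1* (chromosome 3, 78646389 to 79817148, minus strand), a receptor for SLIT guidance proteins, is the longest of the genes (1170 kb) and held 6 Fra-1 peaks, all in introns. Their fold enrichments ranged from 4.70 to 9.76, and AP-1 elements lay at 2 of them. Only the weakest overlapped an E2F1 peak (fold 3.64). The E2F1 promoter peak lay 748564 bp from the canonical start site and 25 bp after an internal start site, with a fold of 20.8 and a pileup of 61. No peak of any factor lay at the canonical start site, and per 100 kb *ROBO1* held 0.472 Fra-1 and 0.157 E2F1 peaks, fewer than the median gene.

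The next 3 genes encode proteins of the extracellular matrix. *TNC* (chromosome 9, 117781854 to 117880486, minus strand) encodes tenascin C, a matrix glycoprotein of stem cell niches and wounds. It held 7 Fra-1 peaks, of which 5 lay between genes in its flanks with fold enrichments of 8.19 to 16.4. The promoter peak at −870 bp had the lowest fold of all 37 (4.33), yet its pileup of 24 stood over a recovered background of 4.78, and E2F1 bound the same site with a fold of 5.09. The E2F1 summit 61 bp after the start site had a fold of 16.6 and no Fra-1 peak. The upstream flank held 3 sites of both factors, at −28649, −39318 and −46541 bp by the Fra-1 summits, and at all 3 the Fra-1 fold (10.4, 13.4 and 8.19) exceeded that of E2F1 (6.89, 5.89 and 3.77).

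*SPARC* (chromosome 5, 151040657 to 151066536, minus strand) encodes a collagen-binding matrix protein. Its 3 Fra-1 peaks had fold enrichments of 5.91, 6.74 and 9.71, at 14644, 1822 and −12434 bp from the start site, and each overlapped E2F1. AP-1 elements lay at the summits of the 2 within promoters. The strongest peak was that of E2F1 at 45 bp, with a fold of 19.9.

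*LTBP1* (chromosome 2, 33172020 to 33624576, plus strand) encodes a protein that anchors latent TGF-β in the matrix. Fra-1 had 6 peaks between 123121 and 428317 bp from the canonical start site and 0 in the flanks. Of these, 3 were promoter peaks of other annotated start sites. Their summits lay 71 bp after, 16 bp before and 82 bp after the nearest such site, with folds of 12.8, 20.3 and 8.42. The intronic summit at 123121 bp had the highest Fra-1 fold of all 10 genes (25.0, percentile 97.9, −log10 q 73.6). The summit at 328940 bp lay in a coding exon, just before an internal start site, with a fold of 20.3. E2F1 peaks overlapped 5 of these 6 Fra-1 peaks with fold enrichments between 4.90 and 12.2, while at the canonical start site its peaks were weak, with fold enrichments of 6.16 and 6.34.

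Of the remaining genes, *ANGPTL4* (chromosome 19, 8428173 to 8439254, plus strand) encodes a secreted inhibitor of lipoprotein lipase that also affects vessel walls. Fra-1 bound at −8336 bp (fold 15.4, pileup 60) and −1964 bp (13.4, pileup 52). It also bound a site in an intron (5.08) and another in the body of *MARCHF2*, overlapping a promoter window of that gene (15.7). E2F1 bound at all 4 sites, with fold enrichments of 7.12, 8.90, 10.0 and 10.5, and in addition at the start site (16.3). The strongest E2F1 peak of all 10 genes (fold 58.0) lay in the upstream flank of *ANGPTL4*, in the promoters of *RPS28*, a ribosomal protein gene, and *NDUFA7*, a gene of respiratory complex I. The MYC peak of the locus (fold 10.4, percentile 90.3) lay at the same place. Of the 9 E2F1 flank peaks of *ANGPTL4*, 6 lay in promoters of other genes.

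*PTGS2* (chromosome 1, 186640923 to 186650054, minus strand) encodes cyclooxygenase-2, the inducible enzyme of prostaglandin synthesis. It held 1 peak, that of E2F1, with its summit at −317 bp from the canonical and 182 bp after another start site (fold 14.5, pileup 29). The nearest Fra-1 peak lay 145 kb away and the nearest MYC peak 3210 kb. *FSCN1* (chromosome 7, 5632447 to 5646286, plus strand) encodes fascin, which bundles actin filaments in protrusions of migrating cells. It held 14 E2F1 peaks, the most of any of the genes, with 5 in promoters and 9 in flanks. Of the flank peaks 8 lay in other genes, mostly *ACTB*. Its Fra-1 promoter peak lay in an intron at 3454 bp with a fold of 7.99, and both Fra-1 flank peaks lay in bodies of other genes, *ACTB* and *RNF216*, with folds of 5.32 and 6.68.

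Most Fra-1 flank peaks lay between genes, whereas most E2F1 flank peaks lay in bodies or promoters of other genes. The same shares over the flanks of all genes are not given, so no trait of these 10 genes can be read from them. Of the Fra-1 flank peaks of all 10 genes 12 of 17 lay between genes, 3 in other gene bodies and 2 in other promoters. Of the E2F1 flank peaks 14 of 33 lay between genes, 10 in other gene bodies and 9 in other promoters.

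For comparison with the start regions themselves, promoter sequences of RefSeq (GRCh38.p14, 250 bases before to 50 after a start site) matched 8 of the 10 genes with 11 sequences. AP-1 elements occurred in 0 of the 11 (4.95% of all 35116 promoters), E-boxes in 0 (7.26%) and E2F elements in 0 (3.31%). A CRE occurred in 1, that of *LTBP1* (1.85%), which is the element printed above.

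The same zones were searched for 11 other genes tied to lung metastasis of MDA-MB-231 derivatives (*CXCL1*, *EREG*, *MMP1*, *MMP2*, *NEDD9*, *KYNU*, *LY6E*, *MAN1A1*, *PLAAT4*, *ADIRF* and *KRT81*). Fra-1 had promoter peaks at 1 of them, MYC at 0 and E2F1 at 6, against 13.2%, 17.8% and 61.3% of all protein-coding genes. In the same order of factors, gene body peaks were found at 4, 1 and 3 genes, against 17.3%, 2.44% and 17.8%. Flank peaks were found at 8, 0 and 6 genes, against 44.2%, 28.7% and 68.7%. The Fra-1 promoter peak was that of *MMP1*, the interstitial collagenase, at −151 bp from the start site (fold 11.5), and E2F1 bound *MMP1* at 74 bp with a fold of 16.7. At *EREG*, the gene of the EGF receptor ligand epiregulin, E2F1 reached a fold of 31.6 at 22 bp, while Fra-1 bound the gene body (10.3). The difference from the 10 genes in Fra-1 promoter peaks, 1 of 11 against 6 of 10, was not tested.

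The numbers of genes rest on the length of the lists. When the Fra-1 and E2F1 lists were reduced to 4867 peaks by −log10 q, Fra-1 promoter peaks remained at 2 genes (*ANGPTL4* and *LTBP1*). E2F1 promoter peaks then remained at 1 gene (*ID1*). The MYC list has 4867 peaks in full, so its count of 0 could not change. The share of all protein-coding genes at this list length is not given here. Without replicates, a site with no peak cannot be called unbound.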

How the data were processed

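Per the methods and labels, reads trimmed by Trimmomatic 0.27 were mapped by the authors to masked hg19 (Bowtie 0.12.5, unique hits), stripped of duplicates with Picard, and passed to MACS2 (2.0.10.20120913, q below 0.01), library by library, with the same input as control. In the lists deposited by the authors, the pileup is a signal that MACS2 scaled for library size, the fold enrichment is a ratio to the local input background with a pseudocount of 1, and p- and q-values are −log10 values.

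Genes and start sites came from GENCODE 44 mapped to GRCh37. A peak entered a zone by an overlap of at least 1 bp, with promoters before bodies before flanks. Exact motif letters were sought on either strand up to 50 bp from a summit. The background at a summit was recovered from the rounded pileup and is approximate. The genes and lists were chosen with earlier results of these data known, and all 10 genes are named. Intervals are 95% Wilson or exact Poisson intervals and cover counting error only. Zones and motifs were checked on simulated data. Alternatives were stricter q-values and folds, equal list lengths, other windows and flanks, and other rules of overlap. Scripts ran in Python 3.11.15 (matplotlib 3.10.9, scipy 1.17.1, pandas 2.3.3, numpy 2.4.6).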

Additional observations from a re-analysis of the deposited data

How the results depend on the processing

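Of 81 alternative values, 58 stayed within 1.5 times the reported one and 23 did not. The 5 that stayed with equal list lengths were MYC values, which could not move because the MYC list sets that length. The MYC counts of 0 in promoters and gene bodies also could not move under stricter cutoffs or narrower windows, which only remove peaks. With the Fra-1 and E2F1 lists reduced to 4867 peaks, Fra-1 peaks remained in promoters of 2 genes, bodies of 1 and flanks of 3. They numbered 12 in all, with 8 AP-1 elements. For E2F1 these were promoters of 1 gene, bodies of 0 and flanks of 2, with 3 peaks in all and 0 E2F elements. Regions shared by Fra-1 and E2F1 then numbered 1, those of MYC and E2F1 1, and those of all 3 factors 0. With 10 kb flanks, Fra-1 flank peaks remained at 2 genes, MYC flank peaks at 1 and E2F1 flank peaks at 3, with 24 Fra-1 and 34 E2F1 peaks in all zones, and with 100 kb flanks MYC flank peaks occurred at 4 genes. The shares of all protein-coding genes at these flank and list lengths are not given, so these counts cannot be set against a background. A motif window of 100 bp gave 1 MYC peak with an E-box. With a reciprocal overlap of 50%, MYC and E2F1 shared 1 region. Regions of all 3 factors numbered 0 at a −log10 q of at least 5 and 1 at a fold of at least 5. No paired analysis was possible because each factor had 1 library and no result comes from a test. For the same reason no library could be left out. The lists were not compared at matched depth, so the part of depth in the number of weak peaks was not tested.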
